A study of Mus musculus with 12 samples.

Results

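The glycolytic enzymes followed here are 10 genes named by their rows in the deposited expression table: Hk2, Gpi1, Pfkl, Pfkp, Aldoa, Tpi1, Pgk1, Pgam1, Eno1 and Ldha. They are 10 of the table's 37477 rows, they were listed by symbol and not by their values, and all 10 passed the filter on low values. The RNA came from the mouse embryonic stem cell line CCE, grown with serum and LIF, the cytokine that keeps such cells undifferentiated. All cells had received a puromycin-resistance lentivirus (pLKO.1-puro) carrying a short hairpin RNA and stayed under puromycin, the control cells included. The 4 groups of 3 libraries were a control hairpin at day 2 after transduction and a hairpin against the long noncoding RNA TUNA at days 2, 4 and 6. Since the only control libraries are of day 2, at days 4 and 6 the hairpin and the time in culture cannot be told apart. The labels do not say whether replicates were separate cultures, so the p-values measure how far these libraries scatter, and that scatter may be technical.

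Glycolysis splits glucose into pyruvate in the cytosol and yields ATP, and lactate dehydrogenase then turns pyruvate into lactate. Hexokinase traps glucose in the cell, phosphofructokinase commits it to the pathway, and the later enzymes harvest the energy. Mouse embryonic stem cells are known for a high glycolytic rate. Several of these genes are also textbook targets of the hypoxia-inducible factor HIF1 and of MYC.

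The depth recovered from the steps between low values was 3521505 to 5651441 reads per library, of which 60.4% to 76.9% lay in 3 rows (Rnu3a, Tex14 and LOC100503663). The 10 enzyme rows together held 2121 to 5933 reads per library. Values are normalized counts, the authors' scaling brought back from their log2 values. The row of TUNA itself (2810011L19Rik, an older symbol of Tunar) was listed at 0 in all 12 libraries, so the knockdown could not be checked. The labelled cell type was checked on 8 stem cell markers, Pou5f1, Sox2 and Nanog among them, all of which passed the filter. Their summed level was 2839 to 3056 in the control libraries.

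The stretches of 250 bases before the annotated start of transcription are shown for 4 of the genes, chosen because Hk2 and Pfkp followed courses of their own over the days, while Pgk1 and Ldha were both higher at day 4. They come from RefSeq, build GRCm38.p6, in which all 10 symbols matched, with 15 starts in all. Each is printed in the direction of transcription. Capitals mark the letters ACGTG or GCGTG, the core of the element that HIF1 is known to bind, read on either strand.

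Hk2 (chr6:82774455-82774704, minus strand): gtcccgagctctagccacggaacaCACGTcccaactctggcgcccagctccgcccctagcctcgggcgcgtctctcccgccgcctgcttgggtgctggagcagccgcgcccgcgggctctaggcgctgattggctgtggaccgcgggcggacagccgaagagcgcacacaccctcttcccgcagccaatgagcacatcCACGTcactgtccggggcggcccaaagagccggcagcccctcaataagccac
Pfkp (chr13:6648772-6649021, minus strand): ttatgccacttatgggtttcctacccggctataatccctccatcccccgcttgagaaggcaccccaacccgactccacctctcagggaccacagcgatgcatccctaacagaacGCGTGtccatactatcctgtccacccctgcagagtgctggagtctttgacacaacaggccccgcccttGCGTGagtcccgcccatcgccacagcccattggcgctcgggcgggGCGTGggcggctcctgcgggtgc
Pgk1 (chrX:106186850-106187099, plus strand): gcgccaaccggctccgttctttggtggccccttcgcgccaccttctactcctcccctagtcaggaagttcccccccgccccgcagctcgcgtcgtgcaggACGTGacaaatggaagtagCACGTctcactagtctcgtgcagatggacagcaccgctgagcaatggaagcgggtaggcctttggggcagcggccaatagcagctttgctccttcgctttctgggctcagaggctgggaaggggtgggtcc
Ldha (chr7:46845554-46845803, plus strand): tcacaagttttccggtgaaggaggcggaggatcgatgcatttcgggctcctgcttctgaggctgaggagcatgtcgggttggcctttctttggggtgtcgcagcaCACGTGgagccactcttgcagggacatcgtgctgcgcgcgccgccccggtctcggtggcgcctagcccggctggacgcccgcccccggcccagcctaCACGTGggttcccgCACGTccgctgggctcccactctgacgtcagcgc

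The 2 cores of Pgk1 and the 2 of Hk2 all have A in first place, whereas the 3 of Pfkp have G. The Ldha stretch holds the A form in 3 places, and at 2 of these it lies inside the E-box CACGTG, the letters that MYC is known to bind. Over both strands, ACGTG was found before 6 of the 15 starts of the enzymes (Hk2, Aldoa, Pgk1, Pgam1 and Ldha) and before 16.57% of the 32851 starts in the table. The G form was found before 7 of the 15 (Pfkl, Pfkp, Pgam1, Eno1 and a second Ldha start) and before 28.16% of all starts. CACGTG, which contains ACGTG on both strands, was found before 1 of the 15 and before 6.021% of all. The GC box GGGCGG was found before 10 of the 15, in 8 genes, and before 32.74% of all. The TATA box letters TATAAA were found before 0 of the 15 and before 12.37% of all. The enzymes' stretches were also richer in G and C (median 62.8%, against 52.4% of all). The 15 stretches are not all separate: 2 of Aldoa overlap, as do 2 of Eno1, and each such pair holds the same cores, so these matches count at both starts. The part of base composition in these shares was not tested, and a match describes the sequence only.

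At day 4 of the TUNA hairpin most of the pathway stood higher than in the control, and at day 6 it was back near or below the control. Of the 10 genes, 7 were higher and 1 lower at day 4 by limma's moderated test with Benjamini-Hochberg adjustment over 8739 genes at 0.05, where 6.99% of all tested genes were higher and 7.76% lower. The median log2 change of the 10 was 0.72, beside -0.01 for all tested genes. At day 2 against the control, 0 were higher and 1 lower, where 0.412% of all were higher and 0.549% lower. At day 6, 0 were higher and 3 lower, where 3.07% of all were higher and 3.15% lower. In bulk RNA, fewer cells of a kind and less of an RNA per cell cannot be told apart.

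**Figure D1:**
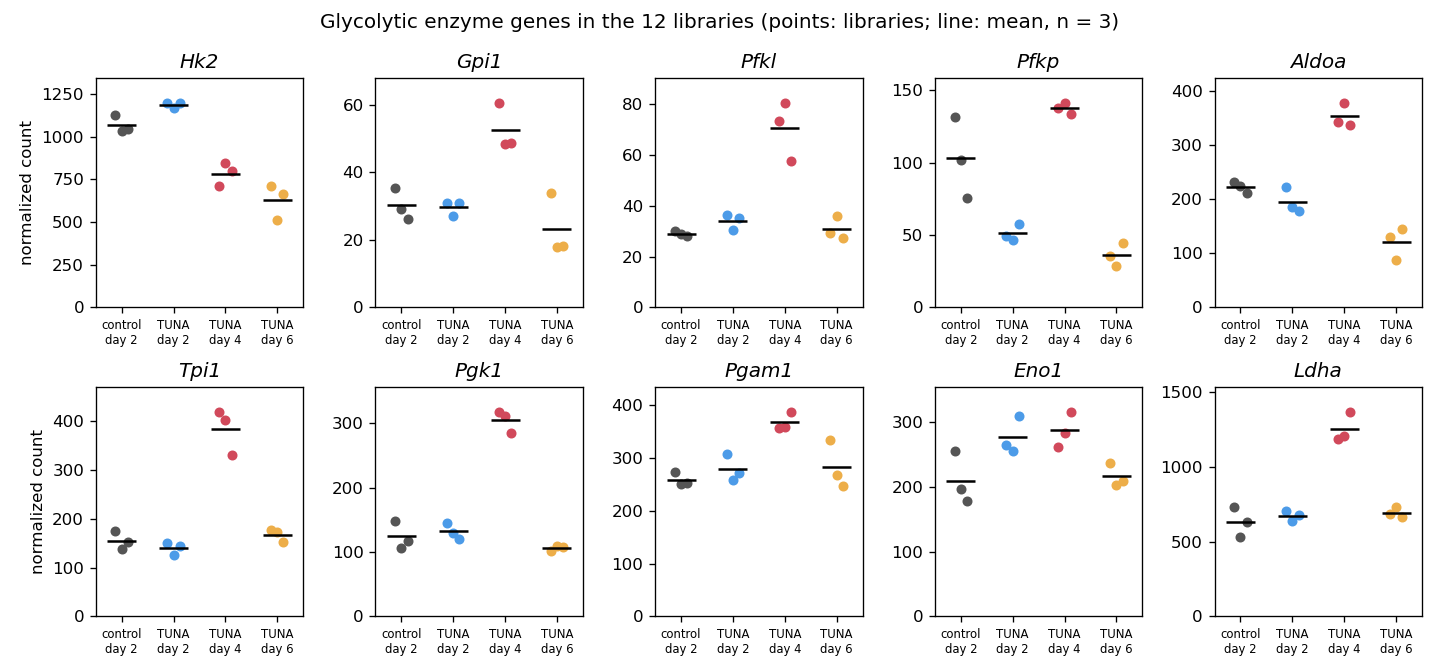
Normalized counts (y axis, from 0) of the 10 enzyme genes in the 4 groups (x axis), each point being 1 library and each line the mean of 3. The day 4 points lie above all others for Gpi1, Pfkl, Pfkp, Aldoa, Tpi1, Pgk1, Pgam1 and Ldha, whereas for Hk2 they lie below both day 2 groups. For Pfkp the margin is narrow (134 against 132 in a control library). The share of all tested genes with day 4 above every other library was not computed.

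Hk2 encodes hexokinase 2, which phosphorylates glucose in the first step. Its row held 1126, 1034 and 1047 normalized counts in the control libraries, 1196, 1168 and 1197 with the TUNA hairpin at day 2, 708, 843 and 801 at day 4 and 712, 513 and 661 at day 6. The 3 values at day 2 lay above the control values, and all values at days 4 and 6 lay below them. The change at day 2 was not called (0.15 ± 0.14 on the log2 scale ± SE, adjusted p = 0.725). Hk2 fell by 0.45 ± 0.14 at day 4 (adjusted p = 0.0382) and by 0.78 ± 0.14 at day 6 (adjusted p = 0.00262). The call at day 4 was lost when any 1 of the 6 libraries was left out (adjusted p of 0.0506 to 0.12), whereas the call at day 6 held without each of its libraries. Against day 2 of the same hairpin, Hk2 was lower at day 4 (-0.60 ± 0.14, adjusted p = 0.014) and at day 6 (-0.93 ± 0.14, adjusted p = 0.000831). Hk2 was the 1 member of the 10 without its highest mean at day 4: it was highest at day 2 and lowest at day 6.

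Gpi1 encodes glucose phosphate isomerase, which turns glucose phosphate into fructose phosphate. It held 35.5, 29.3 and 26.2 in the control libraries, 31, 27 and 31.1 at day 2, 60.6, 48.5 and 48.6 at day 4 and 33.8, 17.9 and 18.3 at day 6. The day 4 values stood above all 9 others, and day 6 replicate 1 stood apart from the other 2 of its group, inside the control range. Gpi1 was higher at day 4 than in the control (0.78 ± 0.25, adjusted p = 0.0421), a call lost without any 1 of the 6 libraries (adjusted p of 0.0524 to 0.138) and with no filter on low values (adjusted p = 0.0671). It fell between day 4 and day 6 by 1.19 ± 0.25 (adjusted p = 0.00799), and this held with each library left out in turn.

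Pfkl and Pfkp encode the liver and platelet types of phosphofructokinase, the committing step. Pfkl held 30.2, 28.9 and 28.2 in the control libraries, 36.6, 30.6 and 35.4 at day 2, 73.6, 80.6 and 57.8 at day 4 and 29.2, 35.9 and 27.5 at day 6. Only at day 4 did it leave the range of 27.5 to 36.6 that held its 9 other values. The rise against the control was 2.43-fold (1.24 ± 0.20, adjusted p = 0.000565), and the fall from day 4 to day 6 was -1.17 ± 0.20 (adjusted p = 0.00173).

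Pfkp held 132, 102 and 75.9 in the control libraries, 49.4, 46.6 and 57.9 at day 2, 138, 141 and 134 at day 4 and 35.8, 28.6 and 44.5 at day 6. The control values were spread from 75.9 to 132, all above those of day 2 and day 6 and below those of day 4. Pfkp was the 1 member called at day 2 (-0.97 ± 0.21, adjusted p = 0.0346), with a mean of 0.496 times the control. That call was lost without control replicate 1 or 2 or any 1 of the 3 day 2 libraries (adjusted p of up to 0.154), and kept without control replicate 3 (adjusted p = 0.0202). At day 4 its difference from the control was not called (0.45 ± 0.21, adjusted p = 0.16), and at day 6 it was lower (-1.47 ± 0.21, adjusted p = 0.000307). Between days it rose by 1.41 ± 0.21 from day 2 to day 4 (adjusted p = 0.000492) and fell by 1.92 ± 0.21 from day 4 to day 6 (adjusted p = 2.71e-05). The gene Pitrm1 on the opposite strand overlaps Pfkp by 748 bases, and since no source used here gives the strand setting of the counting, their reads there cannot be told apart. The row of Pitrm1 stood at -0.30, -0.23 and 0.05 against the control on the log2 scale at days 2, 4 and 6, with no call.

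The proportion of the 2 phosphofructokinase rows shifted within libraries. The ratio of Pfkp to Pfkl was 4.37, 3.54 and 2.69 in the control libraries, 1.35, 1.52 and 1.64 at day 2, 1.87, 1.75 and 2.31 at day 4, and 1.23, 0.80 and 1.61 at day 6. The control ratios lay above those of all 9 TUNA hairpin libraries. With 3 libraries against 3, an exact two-sided permutation test cannot go below p = 0.1, and it gave 0.1 for each day against the control; 30 such ratio comparisons were computed over the members, with the pairs chosen after the values were known. Pfkm, the muscle type, held 17.6 ± 3.96 normalized counts in the control (SD, n = 3) and 13 ± 2.23 at day 4, and was not called at any day. Its share of the 3 phosphofructokinase rows was 5.3% to 6.7% at day 4 and 9.4% to 17.4% in the control.

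**Figure D2:**
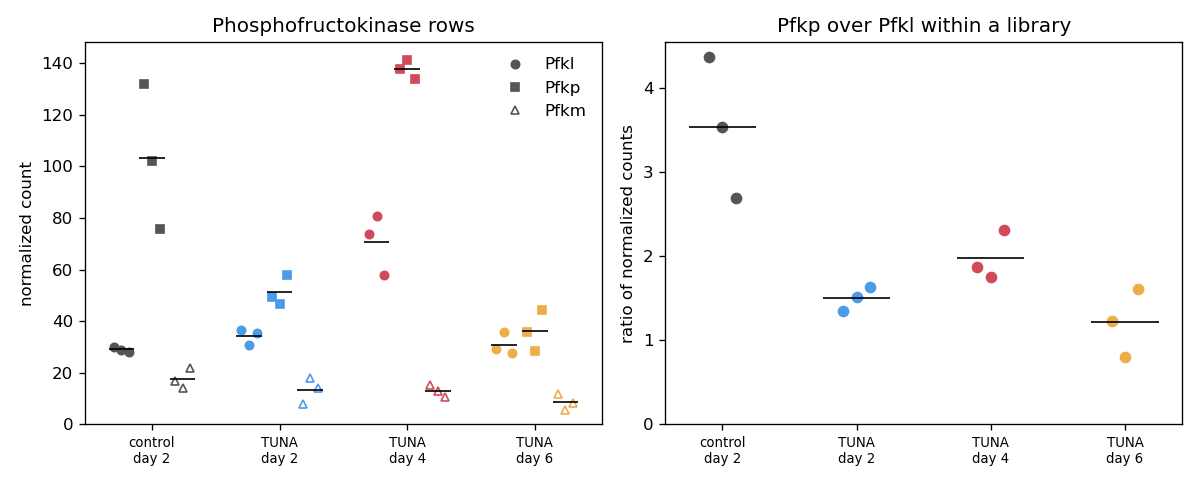
Left: normalized counts of Pfkl, Pfkp and Pfkm by group, 1 point per library and a line for the mean of 3. Right: the ratio of Pfkp to Pfkl in each library, with the mean; the 3 control ratios (2.69 to 4.37) lie above all 9 ratios under the TUNA hairpin (0.80 to 2.31).

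Aldoa and Tpi1 act at the split of the sugar into a pair of triose phosphates. Aldoa, the aldolase that makes the cut, held 233, 224 and 212 in the control libraries, 223, 186 and 179 at day 2, 344, 379 and 339 at day 4 and 130.0, 87.1 and 146 at day 6. Day 4 lay above every other library and day 6 below every other library. Aldoa rose by 0.66 ± 0.17 at day 4 (adjusted p = 0.0151) and fell by 0.91 ± 0.17 at day 6 (adjusted p = 0.00379). The first call was lost without control replicate 3 or day 4 replicate 2 (adjusted p of up to 0.0674), and the second was not lost without any library. From day 4 to day 6 the mean dropped to 0.342 of its level (-1.57 ± 0.17, adjusted p = 2.85e-05).

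Tpi1, triose phosphate isomerase, interconverts the triose phosphates. It held 176, 138 and 153 in the control libraries, 151, 126 and 145 at day 2, 419, 403 and 331 at day 4 and 177, 173 and 152 at day 6. The lowest day 4 library was still far above the highest of the other 9. The rise was 2.47-fold against the control (1.30 ± 0.15, adjusted p = 3.71e-05) and 2.73-fold against day 2 (1.44 ± 0.15, adjusted p = 1.98e-05). At day 6 Tpi1 overlapped the control again (0.11 ± 0.15, adjusted p = 0.759). The ratio of Aldoa to Tpi1 was 1.33 to 1.63 in the control libraries, and it ranged from 0.82 to 1.02 among the day 4 libraries and from 0.50 to 0.96 among those of day 6, without overlap with the control (exact permutation p = 0.1 for each).

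Pgk1 encodes phosphoglycerate kinase, the first step that makes ATP. It held 149, 107 and 117 in the control libraries, 146, 129 and 121 at day 2, 318, 312 and 285 at day 4 and 101, 110.0 and 109 at day 6. The day 4 values were above all others and the day 6 values close together. Pgk1 rose 2.45-fold at day 4 (1.30 ± 0.15, adjusted p = 3.77e-05) and fell by 1.51 ± 0.15 from day 4 to day 6 (adjusted p = 1.72e-05). Against the control its day 6 value was -0.21 ± 0.15 (adjusted p = 0.505).

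Pgam1 and Eno1, phosphoglycerate mutase and enolase, carry out the next steps. Pgam1 held 273, 251 and 251 in the control libraries, 307, 259 and 272 at day 2, 356, 359 and 387 at day 4 and 333, 267 and 247 at day 6. It was higher at day 4 than in the control (0.50 ± 0.14, adjusted p = 0.0224), a call lost when replicate 2 or 3 of either group was left out (adjusted p of up to 0.0722). The differences of day 4 from day 2 and from day 6 were not called, although the groups did not overlap (adjusted p = 0.0939 and 0.114).

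Eno1 held 255, 196 and 177 in the control libraries, 265, 255 and 309 at day 2, 261, 283 and 315 at day 4 and 236, 203 and 209 at day 6. The groups overlapped in 3 of the 6 comparisons, and none of the 6 passed the threshold. The largest change was 0.46 ± 0.16 at day 4 (adjusted p = 0.0525), and the change at day 2 was 0.41 ± 0.16 (adjusted p = 0.28).

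Ldha encodes the A subunit of lactate dehydrogenase. It held 732, 533 and 632 in the control libraries, 704, 638 and 677 at day 2, 1188, 1209 and 1367 at day 4 and 683, 728 and 663 at day 6. The 9 libraries outside day 4 lay between 533 and 732 with the groups overlapping, and the day 4 libraries lay between 1188 and 1367. The rise was 1.98-fold against the control (1.00 ± 0.14, adjusted p = 0.000142), and Ldha fell again by 0.86 ± 0.14 from day 4 to day 6 (adjusted p = 0.00105). At day 6 it stood at 0.14 ± 0.14 against the control (adjusted p = 0.641).

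**Figure D3:**
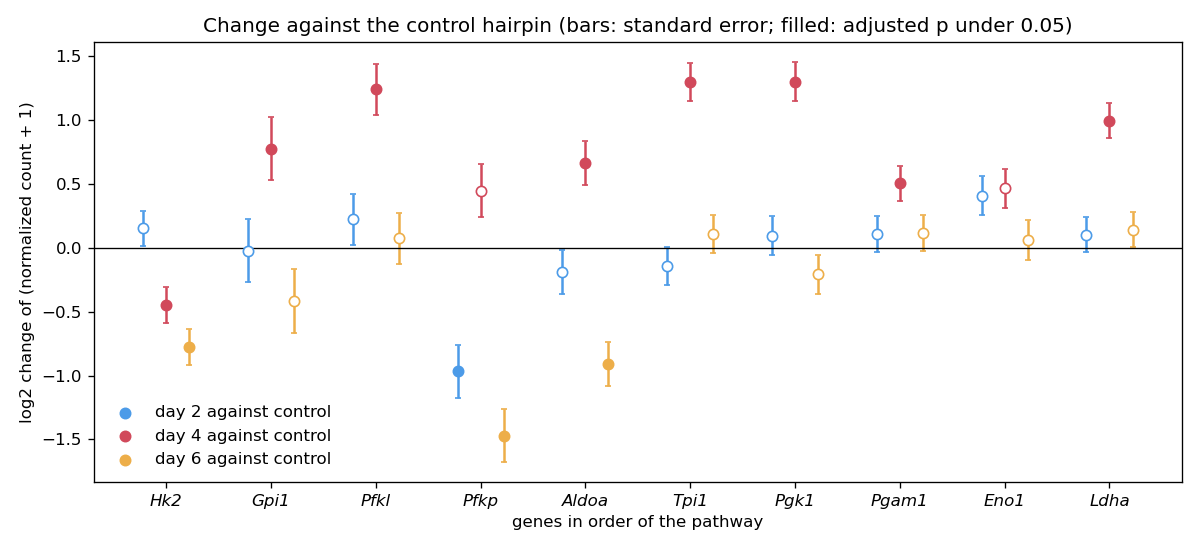
Log2 change against the control hairpin (y axis) of the 10 genes in pathway order (x axis) at days 2, 4 and 6, with standard errors; filled points passed the limma threshold and open points did not. At day 4 the filled points run from 0.50 (Pgam1) to 1.30 (Tpi1 and Pgk1) apart from Hk2 at -0.45, and at day 6 the 3 filled points lie below 0.

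Between the days of the TUNA hairpin, 6 genes were higher at day 4 than at day 2 (Pfkl, Pfkp, Aldoa, Tpi1, Pgk1 and Ldha) and 1 was lower (Hk2), where 3.27% of all tested genes were higher and 4.38% lower. From day 4 to day 6, 7 were lower (the same 6 and Gpi1) and 0 higher, where 2.94% of all were lower and 2.64% higher. From day 2 to day 6, 2 were lower (Hk2 and Aldoa) and 0 higher, where 2.54% of all were lower and 1.96% higher. The lower call of Hk2 at day 4 was lost without any 1 of the day 2 libraries or day 4 replicate 1, and that of Aldoa at day 6 without any 1 of the day 2 libraries or day 6 replicate 1 or 2. The comparisons share libraries, so their counts are not independent of each other. The day 6 value of Hk2 against day 4 was -0.33 ± 0.14 (adjusted p = 0.187), with the groups overlapping.

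The share of the counts outside the 3 dominant rows taken by all 10 rows together was 0.215% to 0.274% in the control libraries, 0.223% to 0.242% (day 2), 0.293% to 0.302% (day 4) and between 0.190% and 0.219% in the day 6 libraries. The day 4 share stood above the others, and the day 6 share reached into the control range. With the libraries scaled to the sum of those counts in place of the authors' factors, 4 of the 10 genes were higher at day 4 (Pfkl, Tpi1, Pgk1 and Ldha) and Gpi1, Aldoa and Pgam1 were not called. The shares of all tested genes called under that scaling were not computed. That scaling moved the median change of all genes by -0.20 on the log2 scale, so a change at day 4 counts relative to that shift. The count was also 4 without control replicate 3 and without day 4 replicate 2. Depth also differed between libraries. Day 4 replicate 1 was the deepest, with 2024389 reads outside the dominant rows against 936256 to 1503679 in the other 11. Day 4 replicates 2 and 3 held 1199209 and 1100145. The part of replicate 1 in the results was not tested beyond leaving it out.

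Compared per length of mRNA, Ldha and Hk2 stood highest among the 10 members. In the control libraries Ldha stood at 348 ± 54.9 normalized counts per kilobase (SD, n = 3) and Hk2 at 194 ± 9.0. Pgam1 (146 ± 7.16) and Aldoa (144 ± 6.75) did not differ beyond their spread, and below them came Eno1 (103 ± 19.9), Tpi1 (96.8 ± 11.9) and Pgk1 (68.1 ± 11.9), the first of which overlapped Tpi1. Pfkp stood at 24.9 ± 6.75, Gpi1 at 10.5 ± 1.64 and Pfkl at 7.79 ± 0.27 per kilobase. Pkm2, which is not among the 10, stood above them all at 1237 ± 105 per kilobase. At day 4 the order had changed, with Tpi1 (239 ± 29.1) and Aldoa (228 ± 14.1) above Hk2 (142 ± 12.5). These levels use the longest coding transcript of GENCODE M21 and take each row as deposited, although some rows share reads with near-identical copies.

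Such copies were listed above 0 for 5 of the members, and no source used here gives how a read that fits several places was counted. The Eno1 row held 15.4% to 21% of the summed counts of Eno1 and its copies. Most of the rest lay in Gm5506, the row of Eno1b, whose sequence is 99.5% identical to Eno1 over 1736 aligned bases and whose mean was 1071 normalized counts. Aldoa held 46.3% to 53.1% of such a sum, beside Aldoart1, Aldoart2, Gm5276 and Gm7556. Gpi1 held 24.6% to 50.9%, beside Gm1840, and Ldha 47.2% to 74.6%, beside Gm5452, Gm13315 and Gm11814. Tpi1 held 85.3% to 94.4%, beside Tpi-rs10, which was matched by its name. The per-length order is thus uncertain for Eno1 above all. Genes on the opposite strand also overlap Hk2 (Gm17034), Gpi1 (Gm26762), Aldoa (Fam57b, by 3084 bases) and Tpi1 (Spsb2, by 34 bases).

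Adding the copies to each row, an alternative chosen after the data were seen, left the counts at day 4 at 7 higher and 1 lower. The sum of Eno1 and its copies was 1179.8 ± 44.3 in the control, 1443 ± 53.3 at day 2, 1564 ± 78.6 at day 4 and 1182 ± 171 at day 6 (SD, n = 3), and the day 4 difference stayed just short of the threshold (log2 change 0.41 ± 0.14, adjusted p = 0.0519). Aldoa with its copies was higher at day 4 (0.68 ± 0.17, adjusted p = 0.0122) and lower at day 6 (-0.86 ± 0.17, adjusted p = 0.00458). Ldha with its copies was higher at day 4 (0.92 ± 0.20, adjusted p = 0.00562), with a wider spread. Gpi1 with its copy was higher at day 4 than at day 2 as well (0.82 ± 0.18, adjusted p = 0.0121), a difference that its own row missed (0.80 ± 0.25, adjusted p = 0.0567). Hk2, Pfkl and Pfkp had no such copy listed above 0, and Pgk1-rs7 and Pgam1-ps2, each 100% identical to its parent over the aligned stretch, were listed at 0. How reads of those stretches were counted is not known either, so the levels of the Pgk1 and Pgam1 rows are uncertain too.

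**Figure D4:**
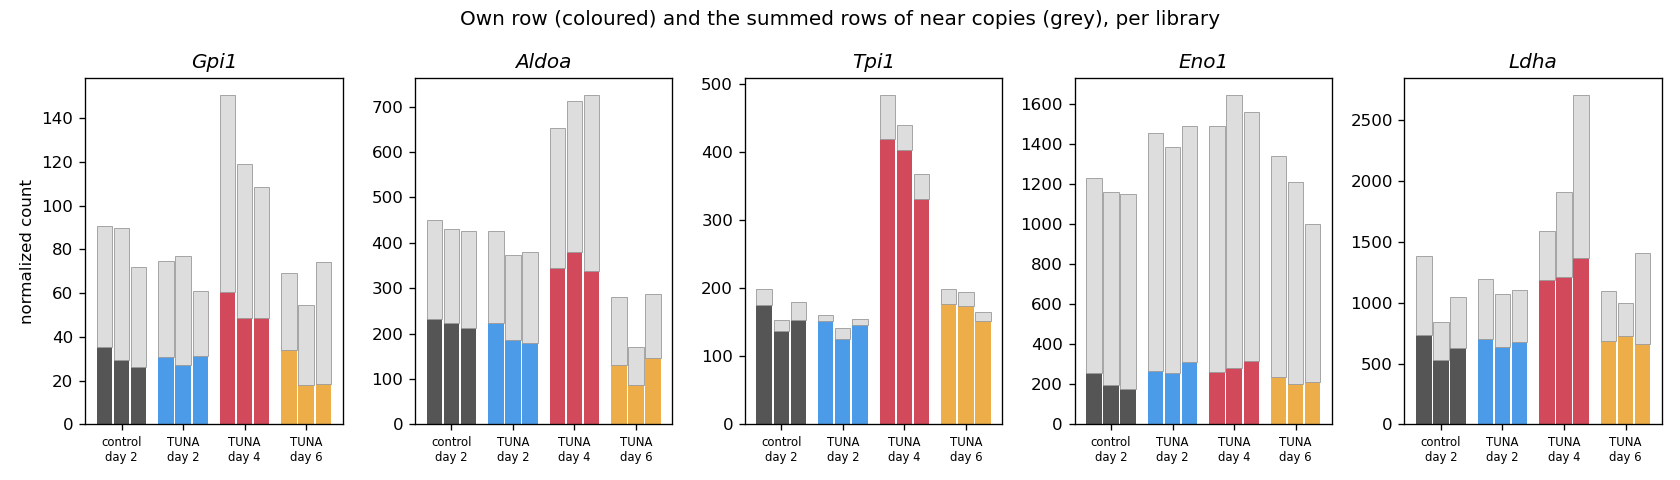
Normalized counts (y axis, from 0) in each of the 12 libraries, in groups of 3, of the 5 genes with expressed copies: the coloured part of a bar is the gene's own row and the grey part the summed rows of its copies. The Eno1 row makes up 15.4% to 21% of its bar, whereas Tpi1 makes up 85.3% to 94.4%.

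Isoenzymes of the same steps were counted apart. Of 18 listed, 9 passed the filter (Hk1, Adpgk, Pfkm, Aldoc, Gapdh, Bpgm, Eno3, Pkm2 and Ldhb), and Ldhb alone was called against the control. Ldhb, the other subunit of lactate dehydrogenase, held 138, 127 and 149 in the control libraries, 233, 235 and 237 at day 2, 252, 231 and 254 at day 4 and 88.5, 84.3 and 87.7 at day 6. Each TUNA hairpin group lay clear of the control, above it at days 2 and 4 and below it at day 6. It rose by 0.77 ± 0.13 already at day 2 (adjusted p = 0.00872), when Ldha stood at 0.10 ± 0.14 (adjusted p = 0.834), and fell at day 6 by 0.66 ± 0.13 (adjusted p = 0.00544). Its copy Gm5514, 98.0% identical over 1002 bases, changed likewise by 0.99, 0.63 and -0.62 at days 2, 4 and 6.

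Pkm2 is the table's row for the pyruvate kinase gene, the last step to pyruvate. It held 3041, 2738 and 3247 in the control libraries, 3182, 2878 and 2799.6 at day 2, 4592, 4318 and 3904 at day 4 and 3057, 3349 and 2156 at day 6. The day 4 values lay above the others, but the change against the control narrowly missed the threshold (0.51 ± 0.17, adjusted p = 0.0515). From day 4 to day 6 it fell by 0.60 ± 0.17 (adjusted p = 0.0443). Gapdh, the dehydrogenase between Tpi1 and Pgk1, held 62.6 ± 17.9 in the control and 80.4 ± 18 at day 4 (SD, n = 3), with a log2 change of 0.37 ± 0.23 (adjusted p = 0.29); its gene has many near-identical copies, so its row is uncertain. Hk1 stood at 11.6 ± 1.09 in the control and 5.20 ± 1.82 at day 6, which was not called (adjusted p = 0.189). Adpgk, Bpgm, Aldoc and Eno3 were not called in any of the 6 comparisons.

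Counts in the lists of genes around glycolysis stand beside the same shares of all tested genes, 6.99% higher and 7.76% lower at day 4 and 3.07% and 3.15% at day 6, and no list was tested as a whole. Of 4 tested transporters of glucose and lactate, 2 were higher at day 4. Slc16a3, which exports lactate, held 14, 13.5 and 27.2 in the control libraries, 16.8, 23.8 and 17.1 at day 2, 76.1, 86.5 and 81.7 at day 4 and 20.3, 14 and 25.7 at day 6 (day 4 log2 change 2.17 ± 0.29, adjusted p = 0.000107). Slc2a1, the glucose transporter GLUT1, rose from a mean of 472 ± 46.1 to 839 ± 17.9 (adjusted p = 0.000479). Both were highest at day 4, where their libraries did not overlap the control.

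Of 7 tested genes of glycogen and hexose side branches, 2 were higher and 1 lower at day 4. Pgm2, a phosphoglucomutase, which links glycogen to glycolysis, held 14.5, 15.4 and 14.2 in the control libraries and 85, 93.1 and 72.3 at day 4 (2.42 ± 0.24, adjusted p = 1.04e-05). Galk1, galactokinase, rose too (1.27 ± 0.27, adjusted p = 0.00412), while Gfpt1, the entry to hexosamines, fell by 0.61 ± 0.18 (adjusted p = 0.026). Pgm1 was lower at day 6 (-0.87 ± 0.25, adjusted p = 0.0456).

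In the pentose phosphate pathway, which branches off after hexokinase, 0 of 7 were higher and 1 was lower at day 4 (Pgd, -0.82 ± 0.26, adjusted p = 0.042), and the list's median log2 change was -0.34. Of 9 tested genes of pyruvate dehydrogenase and its kinases, 1 was higher at day 4 and at day 6: Pdk1, a kinase that inactivates the dehydrogenase, held 259 ± 20.6 in the control, 449.7 ± 61.4 at day 4 (adjusted p = 0.00132) and 412 ± 27.9 at day 6 (adjusted p = 0.00864). Of 2 tested genes in the control of fructose-2,6-bisphosphate, 9630033F20Rik was lower at day 4 (-0.93 ± 0.22, adjusted p = 0.00956). None of 2 gluconeogenic and none of 5 glycerol phosphate and serine branch genes was called against the control at any day by limma with Benjamini-Hochberg adjustment.

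Among 10 tested regulators of glycolytic genes, 2 were higher and 1 lower at day 4. Egln3 and Egln1, oxygen-sensing prolyl hydroxylases that mark HIF for destruction and are themselves HIF targets, were the 2. Egln3 was listed at 0 in control replicate 1, held 2.76 and 2.18 in the other control libraries and 41.8, 39.9 and 38.9 at day 4 (adjusted p = 9.14e-05), so that its control level rests on very few reads. Only its day 4 libraries reached 10 normalized counts, so Egln3 entered the tests solely through the group where it was high. Egln1 rose by 1.70 ± 0.31 (adjusted p = 0.00146). Myc, a transcription factor known to drive glycolytic genes, was lower at day 4 (-1.72 ± 0.29, adjusted p = 0.000856), and Vhl, the partner that recognises hydroxylated HIF, was lower at day 6 (-0.91 ± 0.21, adjusted p = 0.0115).

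Of 10 tested low-oxygen target genes outside glycolysis, 5 were higher and 1 lower at day 4, with a median log2 change of 1.01, and 1 was higher and 3 lower at day 6. Bnip3, a mitophagy receptor, held 9.58, 8.20 and 11 in the control libraries and 91.9, 92.7 and 62.6 at day 4 (2.96 ± 0.28, adjusted p = 6.91e-06). Plod2, a collagen lysyl hydroxylase, rose by 2.47 ± 0.20 at day 4 (adjusted p = 1.46e-06) and was still 1.02 ± 0.20 above the control at day 6 (adjusted p = 0.00415). Ddit4, an inhibitor of mTORC1 signalling, and P4ha1, a collagen prolyl hydroxylase, rose by 2.41 and 1.46 at day 4.

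**Figure D5:**
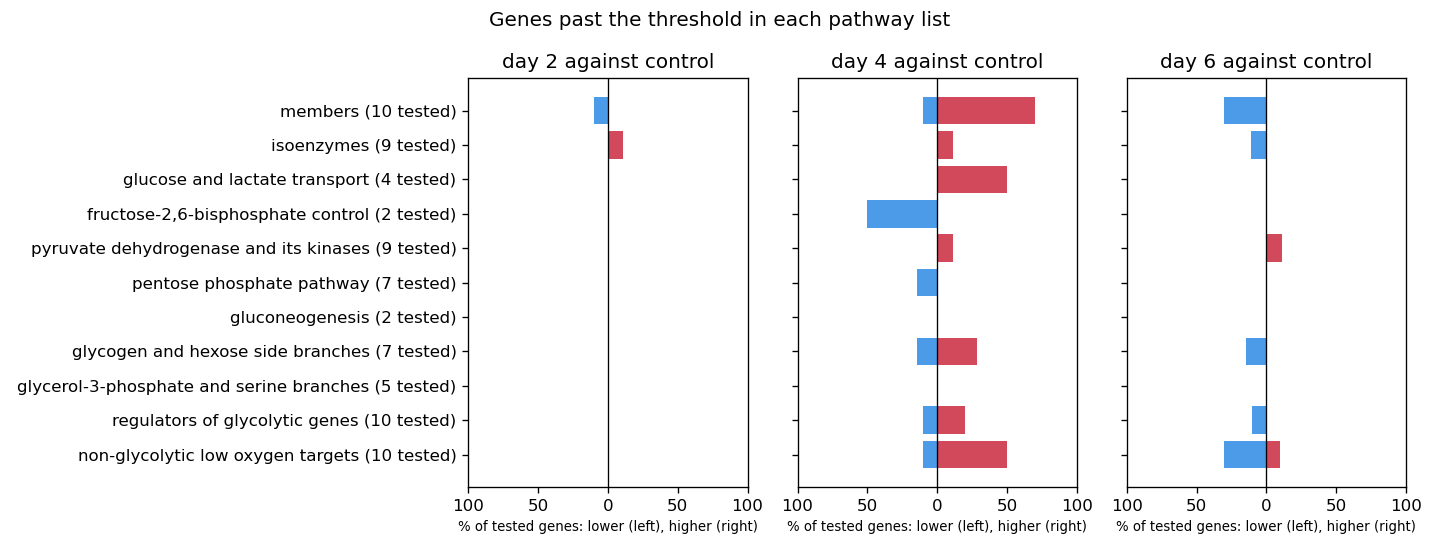
Share of the tested genes of each metabolic, regulator and low-oxygen list (rows, without the cell type marker and cell cycle lists, with the number tested) that were higher (right, red) or lower (left, blue) than the control at days 2, 4 and 6, by the limma threshold. At day 4 the enzymes (7 of 10 higher), the transporters (2 of 4) and the low-oxygen targets (5 of 10) reach farthest to the right among the lists drawn.

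Markers of cell types also moved, with calls at day 4 and at day 6. The summed level of 10 fibroblast and feeder markers was 6.62 to 10.3 in the control libraries, between 12.3 and 34.6 (day 2), between 15.7 and 26.0 (day 4) and between 242 and 331 (day 6) under the TUNA hairpin. Of these, 7 were listed at 0 in every library, among them the fibroblast collagens Col1a1, Col1a2 and Col3a1, and the sum at day 6 lay in Tagln and Acta2, the contractile genes of smooth muscle and stress fibres (means 149 and 140.3). Tagln and Acta2, the 2 that passed the filter, were called higher both at day 4 (1.20 and 2.21 on the log2 scale) and at day 6 (4.40 and 6.75), though at day 4 their means were 16.0 and 5.48 normalized counts, and Acta2 was listed at 0 in 2 of 3 control libraries. Only the day 6 libraries of Acta2 reached 10 normalized counts, so it entered the tests solely through the group where it was highest. The summed level of the 8 stem cell markers was 2565 to 2772 at day 2, below the 2839 to 3056 of the control. At that day 0 of the 8 were called higher and 0 lower. The sum was 2508 to 2647 at day 4 and 1734 to 2203 at day 6. Lower than the control were 2 of 8 at day 4 and 4 of 8 at day 6. Fgf4 (-1.07), Nanog (-0.96) and Zfp42 (-0.65) were among the 4, and Pou5f1 (-0.57) and Zfp42 (-0.76) were the 2 of day 4. The part of these changes in the enzyme levels was not tested. The summed endoderm markers reached at most 17.1 and the neural markers at most 34.3 in any library. Of 8 cell cycle genes, 2 were higher and 1 lower at day 4.

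Over the 12 libraries, 9 of the members ran along with the mean of all 10. Their Pearson correlations with that mean, which contains them, ran from 0.65 (Eno1) to 0.96 (Pgk1), while that of Hk2 was 0.09. Tpi1 and Ldha correlated at 0.95, and the lowest pair was Hk2 and Tpi1 at -0.39. These correlations describe 12 libraries in 4 groups, which share scaling and depth, and carry no test. Of 3252 other genes averaging 50 normalized counts or more, the 5 most like the members' mean were Gm6560 (0.96), Nampt (0.94), Txnip (0.93), Sfrs18 (0.93) and Slc25a36 (0.92). Gm6560 is a processed pseudogene of the pyruvate kinase gene, 98.4% identical to it over 1593 bases. It held 3796, 3337 and 3608 normalized counts in the control libraries, 3899, 3468 and 3595 at day 2, 5242, 5529 and 5303 at day 4 and 3319, 3427 and 2863 at day 6, so the day 4 values stood above the rest. Its log2 change at day 4 was 0.58 ± 0.14 (limma adjusted p = 0.0109), past the threshold that the Pkm2 row narrowly missed. Gm6560 was picked for its likeness to a mean that was highest at day 4, so this call is not independent of the choice. The difference between the rows of Gm6560 and Pkm2 was not tested.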

How the data were processed

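RNA of 12 libraries in 4 groups of 3 was analysed, grouped by the sample titles. The authors deposited 1 table of 37477 rows of log2 normalized counts, floored at 0; BWA, DESeq and the mouse build mm9 are named without roles or versions, per the submitters' processing notes. Columns of other samples numbered 0. The values were raised to normalized counts, those listed at 0 set to 0, and a row entered the tests (8739 did) if 3 or more libraries reached 10 normalized counts. After adding a pseudocount of 1 and taking log2, all 12 libraries were fitted together in limma 3.58.1 (R 4.3.3) by group means with a variance trend, and p-values were adjusted by Benjamini-Hochberg over all genes at a threshold of 0.05, in 6 comparisons. Fold changes on this scale understate the changes of low genes. The fit was tested on simulated data.

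The worth of 1 read per library was recovered from low values, of which 40.3% to 61.3% lay within 0.01 of a whole multiple; the values are thus weighted counts, and no count test was run. Near copies were found with BLAST 2.17.0 in GENCODE M21 (GRCm38), at 85% identity or more over at least 500 bases. Promoters came from RefSeq (GRCm38.p6), and no coordinate was carried to mm9. Proteins were not analysed here. Alternatives were other scalings, filters, a pseudocount of 5, a replicate block, the 2 groups alone, copies summed, and each library left out.

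The members and lists were chosen with earlier results of these data known. Named are the 10 members, the detected isoenzymes, and the 5 genes most like the members' mean. From each other list, up to 4 genes past the threshold against the control are named, by smallest adjusted p. Kdm3a, Ak4 and Vegfa were added from the low-oxygen list because they stood lower at day 6.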

Additional observations from a re-analysis of the deposited data

Results flagged for a closer look

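For 6 of the enzymes, the change against the control had opposite signs at 2 of the 3 days, and the difference between those days itself passed the limma threshold. The share of all tested genes that meet this rule was not computed, and the changes share the same control libraries. The count therefore holds no comparison with other genes. Hk2 was above the control at day 2 and below it later, with log2 differences of -0.6014 from day 2 to day 4 and -0.9289 from day 2 to day 6. Pfkp went from below to above the control between day 2 and day 4 (1.413) and back below it by day 6 (-1.915). Aldoa did the same, with 0.8531 from day 2 to day 4 and -1.571 from day 4 to day 6. Tpi1 passed from just below to above the control between days 2 and 4 (1.441). Gpi1 and Pgk1 passed from above the control at day 4 to below it at day 6, by -1.194 and -1.507. The change of sign itself rests in part on values that were not called against the control: Hk2, Aldoa and Tpi1 at day 2, Pfkp at day 4, and Gpi1 and Pgk1 at day 6. Groups of 3 libraries were not tested for single outlying values.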

How the results depend on the processing

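Shares of all tested genes called were computed for the main fit only, so the counts of members under other settings stand without them. With the libraries scaled to the sum outside the 3 dominant rows, which was chosen after seeing the data, 4 members were higher at day 4 against the control in place of 7, and 1 was lower at day 6 than at day 2 in place of 2. That scaling moved the median log2 change of all genes by -0.16 at day 2 and -0.20 at day 4 against the control, 0.23 from day 4 to day 6 and 0.19 from day 2 to day 6, and the other scalings moved it by at most 0.04. Under that scaling, the uncalled day 2 changes of Hk2 (-0.01118), Pgk1 (-0.06531), Pgam1 (-0.05542) and Ldha (-0.06151) turned sign. So did the day 6 to day 2 change of Pfkl (0.03757). The median of all genes was then -0.15 at day 2 and 0.18 from day 2 to day 6. Relative to that median, these changes kept the sign of the main fit. The lower call of Hk2 at day 4 was lost (0 members) with no filter, with a replicate block and with only the 2 groups fitted. Fitting only the 2 groups also left 1 member lower at day 6 than at day 2. Summing copies turned the uncalled Eno1 change at day 6 to -0.007219. The cause of these shifts was not tested.

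Without 1 library, the members lower at day 2 numbered 0 to 1, those higher at day 4 numbered 4 to 7 and those lower at day 4 numbered 0 to 0. Members lower at day 4 than at day 2 numbered 0 to 1 and those lower at day 6 than at day 2 numbered 1 to 2. The 3 lower at day 6, the 6 higher at day 4 than at day 2 and the 7 lower at day 6 than at day 4 kept their number without any 1 library. Some uncalled changes turned sign without 1 library. Against the control, Gpi1 ranged from -0.1187 to 0.09341 (0.04203 without day 2 replicate 2), Pgk1 from -0.005567 to 0.2309 and Ldha from -0.01623 to 0.2124 at day 2. At day 6 Pfkl ranged from -0.03496 to 0.1499, Pgam1 from -0.009497 to 0.2042 and Eno1 from -0.05 to 0.2099. From day 2, Eno1 ranged from -0.01519 to 0.1388 at day 4 and Pgam1 from -0.1161 to 0.09756 at day 6.

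The labels state no pairing by replicate number. Deviations from the group means correlated at -0.277 to 0.328 between libraries of the same number, and at -0.0335 to 0.328 among those of the TUNA hairpin. Correlations between different numbers were not computed, so pairing was not tested. With a replicate block, 7 members were higher and 0 lower at day 4 against the control, and 7 were higher at day 4 than at day 2 in place of 6. Depth limits the low rows most: Gpi1 rested on 19.3 to 93.0 reads per library and Pfkl on 24.8 to 113.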

Other observations

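Of the copies of Ldha, the pseudogene row Gm5452 held 384, 515 and 1006 normalized counts in the 3 day 4 libraries and 487, 288 and 304 in the control libraries. Gm13315 held 12.9, 174 and 318 at day 4 and 160, 13.8 and 104 in the control. The spread within a group was thus larger in these rows than in Ldha itself, which held 1188, 1209 and 1367 at day 4.

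The ratio of Hk2 to Tpi1 was 6.40 to 7.51 in the control libraries, 7.92 to 9.28 (day 2), 1.69 to 2.42 (day 4) and between 2.96 and 4.34 in the day 6 libraries, and no 2 groups overlapped.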
